A study of Danio rerio with 12 samples.

Results

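Kidneys of zebrafish lacking cebpd were set directly against kidneys of zebrafish lacking CEN, a comparison of 6 of the 12 RNA-seq libraries of the series. Members were taken by genotype label: the 3 libraries labelled cebpd homozygous knockout and the 3 labelled CEN homozygous knockout. The libraries held 14781 annotated genes, of which 11840 passed the filter on low counts and were tested. The 4 groups were cebpd KO, CEN KO, the wild types of the cebpd set and the wild types of the CEN set, with 3 libraries each. All fish were adult males of the EK strain, aged 4 to 12 months, and all, wild types included, had their cardiomyocytes ablated. Ablation used tamoxifen at 0.5 to 0.7 µM for 17 h, and whole kidneys were taken on day 7 after the incubation. The labels number the replicates but leave unsaid how many fish went into each, which part of cebpd was altered, what CEN stands for, and whether knockouts and wild types were siblings. The p-values below therefore measure the spread between these libraries, which may in part be technical.

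Cebpd is a leucine zipper transcription factor of the C/EBP family, known as a rapidly induced factor of the acute phase and of inflammation. In published zebrafish work CEN is an enhancer near cebpd that responds to cardiac injury, so the comparison sets loss of the gene beside loss of an element that can act on it. The adult zebrafish kidney holds nephrons, interrenal steroid cells and chromaffin cells, and it is also the blood-forming marrow, so that neutrophils, erythroid cells and lymphocytes contribute to whole-kidney RNA.

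Counts assigned to genes ranged over the 12 libraries between 15793475 and 18104535, so that 3 counts corresponded to 0.157 to 0.199 CPM (counts scaled to library size, with TMM factors). Markers of proximal and distal tubule, podocytes, interrenal cells, neutrophils and erythroid cells were detected in both knockouts, which fits the labelled tissue. The erythroid marker ba1 had 0 counts in both, and some defining markers were not measured, among them slc34a1a, cubn and slc12a1. Heart muscle markers summed to less than 1 CPM in every library. The first principal component held 40.7% of the variance and parted the cebpd libraries, at -60.5 to -7.86, from the CEN libraries, at 25.7 to 45.9, whether mutant or wild type. Within the 6 knockouts, the genotype and the set of libraries it belongs to cannot be told apart. Many differences below are therefore given beside the difference between the wild types of the same sets, which share no library with the knockouts. A difference given without a wild-type value is not set against the wild types here. Cebpd KO 3 and CEN KO 1 stood apart from their own groups, with a mean correlation to the group's other libraries of 0.953 and 0.950, against 0.961 to 0.967 in the other knockouts. Counts of genes are also given without both of these libraries, a choice made after seeing the data.

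The targeted gene separated the knockouts. Cebpd had 10.4, 4.03 and 12.9 CPM in cebpd KO kidneys, against 67.8, 72.8 and 77.9 CPM in CEN KO kidneys. The 2 groups did not overlap, and both lay below every wild-type library, at 316, 466 and 337 CPM in cebpd WT and 294, 333 and 212 CPM in CEN WT. The mean was 9.10 ± 4.56 CPM in cebpd KO and 72.8 ± 5.01 CPM in CEN KO (SD, n = 3 each), 8.04-fold lower in cebpd KO (log2 fold change -3.01 ± 0.35 SE, adjusted p = 0.00075, edgeR's quasi-likelihood test with Benjamini-Hochberg adjustment, as are all adjusted p-values below, with a gene called at an adjusted p under 0.05). Between the wild types cebpd differed by 0.42 on the log2 scale (adjusted p = 0.354). The gap between the knockouts differed from that between the wild types by -3.42 ± 0.46 (adjusted p = 0.0244), and this test of the difference lost its call when the replicate number was fitted as a block.

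Rbbp8, which encodes the CtIP endonuclease cofactor that starts DNA end resection, separated the knockouts in the other direction. It had 6.18, 3.87 and 4.71 CPM in cebpd KO, against 0.388, 0.0579 and 0.0606 CPM in CEN KO. The CEN KO libraries held 7, 1 and 1 counts, against 100, 72 and 71 counts in cebpd KO, and the pooled ratio was 28.1 (95% counting interval 14.5 to 62.1, covering counting error only). The cebpd KO libraries overlapped with the wild types, at 7.53, 5.51 and 8.83 CPM in cebpd WT and 6.15, 7.69 and 4.81 CPM in CEN WT, while the CEN KO libraries lay below all others. The difference between the knockouts passed the test (log2 fold change 4.77 ± 0.51, adjusted p = 0.000415), as did its difference to the wild types (4.54 ± 0.63, adjusted p = 0.0244), and the test against the wild types again lost its call under the replicate block.

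Rbbp8 is the sixth measured gene after cebpd in RefSeq's gene order. Of the 20 measured genes within 10 places of cebpd on either side, 4 were higher in cebpd KO (8.52% of all genes were) and 1 was lower (7.35% of all genes were), with a median log2 fold change of 0.08. The other 3 that were higher were mcm4, a subunit of the replicative helicase, by 0.99 (adjusted p = 0.0102), mapre2, a microtubule end-binding protein, by 0.55 (adjusted p = 0.0182), and riok3, a RIO-family kinase, by 0.71 (adjusted p = 0.018). Pcmtd1, a methyltransferase domain protein, was lower by -0.85 (adjusted p = 0.0159). It was also lower between the wild types, by -0.83, where mcm4 and riok3 were higher by 0.51 and 0.50. Of these only pcmtd1 was called there. Mapre2 is the gene next to cebpd and had 58.0, 64.1 and 52.6 CPM in cebpd KO, against 37.2, 44.4 and 37.5 CPM in CEN KO. Its groups did not overlap, and between the wild types it differed by -0.37, though the difference of the 2 gaps missed the threshold (0.92, adjusted p = 0.104). Along the whole chromosome 43 of 316 tested genes were called, or 13.6%, which ranked 22 of 25 chromosomes.

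**Figure D1:**
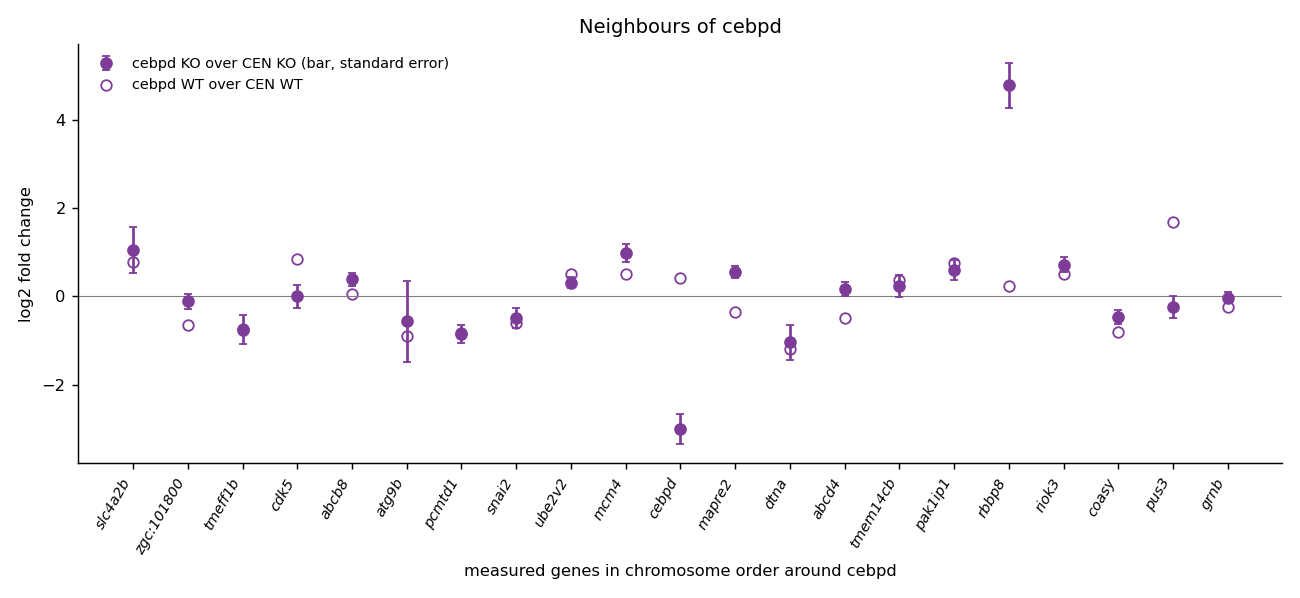
Log2 fold change of cebpd and its 10 measured neighbours on either side, in chromosome order, for cebpd KO over CEN KO (filled, bars are standard errors) and cebpd WT over CEN WT (open). Cebpd at -3.01 and rbbp8 at 4.77 leave the range of the other genes between the knockouts, while both lie near 0 between the wild types.

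Of the 7 members of the C/EBP family measured, 2 were lower in cebpd KO and 0 were higher. Apart from cebpd this was cebpg, a family member that lacks a transactivation domain, with 72.0, 61.8 and 67.7 CPM in cebpd KO, against 86.9, 84.3 and 89.8 CPM in CEN KO. The groups did not overlap, but the difference was small (-0.37 ± 0.11, adjusted p = 0.0331) and the call was lost without cebpd KO 2 and without each CEN KO library, among others. Cebpb, the closest inflammatory paralog, had 308, 311 and 513 CPM in cebpd KO, against 239, 225 and 211 CPM in CEN KO. These values did not overlap either and missed the threshold (0.75, adjusted p = 0.0575), though cebpb was called with the DESeq2 Wald test (adjusted p = 0.0207) and in edgeR's test without cebpd WT 2. Cebpa, the factor of granulocyte and hepatocyte differentiation, overlapped at 606 to 642 CPM in cebpd KO and 592 to 693 CPM in CEN KO (-0.07, adjusted p = 0.856), and cebp1, cebpz and ddit3 also missed the threshold.

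**Figure D2:**
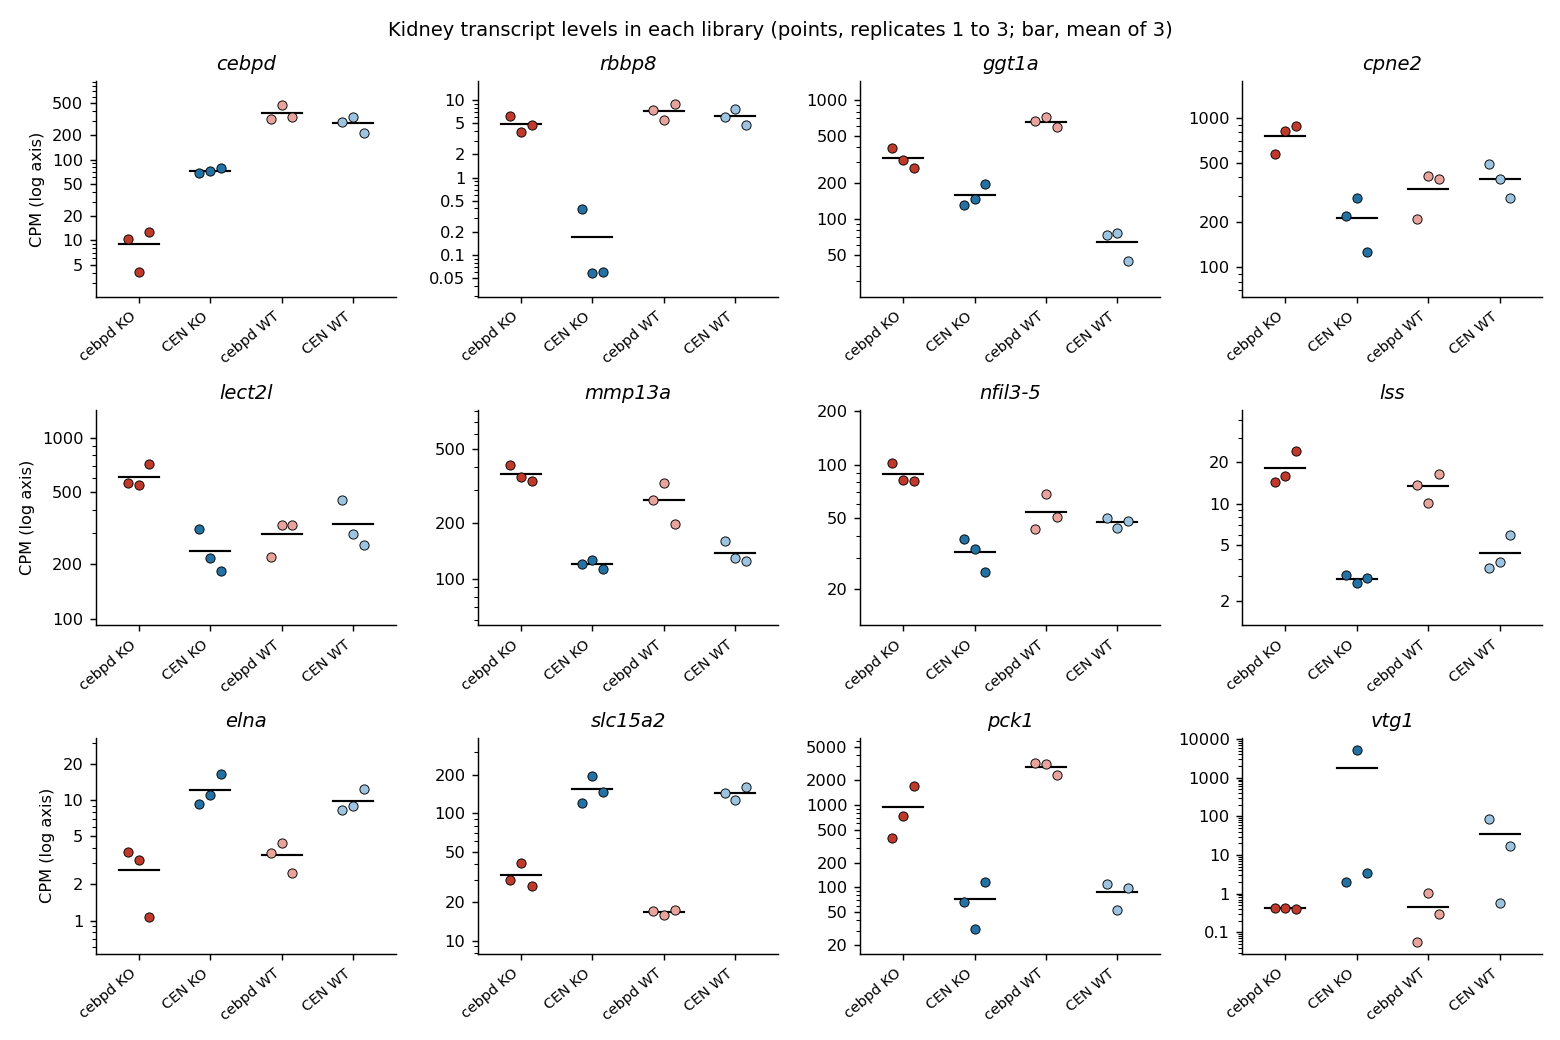
CPM of 12 genes in each library on log axes (points, replicates 1 to 3 from left to right; bar, mean of 3), with cebpd KO and CEN KO left of the wild types of the same sets. Rbbp8 is low in CEN KO alone, cpne2, lect2l and nfil3-5 part the knockouts but not the wild types, and slc15a2, lss, elna and pck1 part the sets in knockouts and wild types alike. Vtg1 is carried by CEN KO 2, at 5341 CPM.

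Across all genes the knockouts differed at 1879 of 11840 genes (15.9%), 1009 of them higher in cebpd KO (8.52%) and 870 lower (7.35%). Groups did not overlap at 4233 genes (35.8%), among them 1854 of the called genes. The median size of a called difference was 0.88 on the log2 scale, and 740 genes differed by 2-fold or more, 292 higher and 448 lower. Without cebpd KO 3 and CEN KO 1 the count was 1444, of which 1117 were shared. The count was 896 without CEN KO 2, 795 without CEN KO 3, and 814 when the 6 knockout libraries were fitted alone.

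The wild types of the 2 sets differed at 2961 genes (25.0%), a larger count than between the knockouts, and their groups did not overlap at 5494 genes (46.4%). The called count was 1630 without CEN WT 1 and 1890 without cebpd WT 3. Such counts also depend on the spread within groups. The median correlation within a group was 0.978 in cebpd WT and 0.981 in CEN WT, against 0.954 in cebpd KO and 0.952 in CEN KO. Across the sets it was similar, at 0.945 between the wild types and 0.948 between the knockouts. Of the 1879 genes called between the knockouts, 1767 (94.0%) had the same sign between the wild types, against 73.9% of all genes, and 1105 were called in both with the same sign. These shared genes were 58.8% of the genes called between the knockouts and 37.3% of those called between the wild types. Across the 11840 genes the log2 differences of the 2 comparisons correlated at r = 0.66, a description over genes, which are not independent replicates. At the largest sizes the match was closest for genes higher in the cebpd set: of the 58 genes at least 4-fold higher in cebpd KO, 57 had the same sign between the wild types, where their median was 2.89, against 2.68 between the knockouts. For the 125 genes at least 4-fold lower in cebpd KO, 113 had the same sign, and the median was -1.51 between the wild types and -2.56 between the knockouts.

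**Figure D3:**
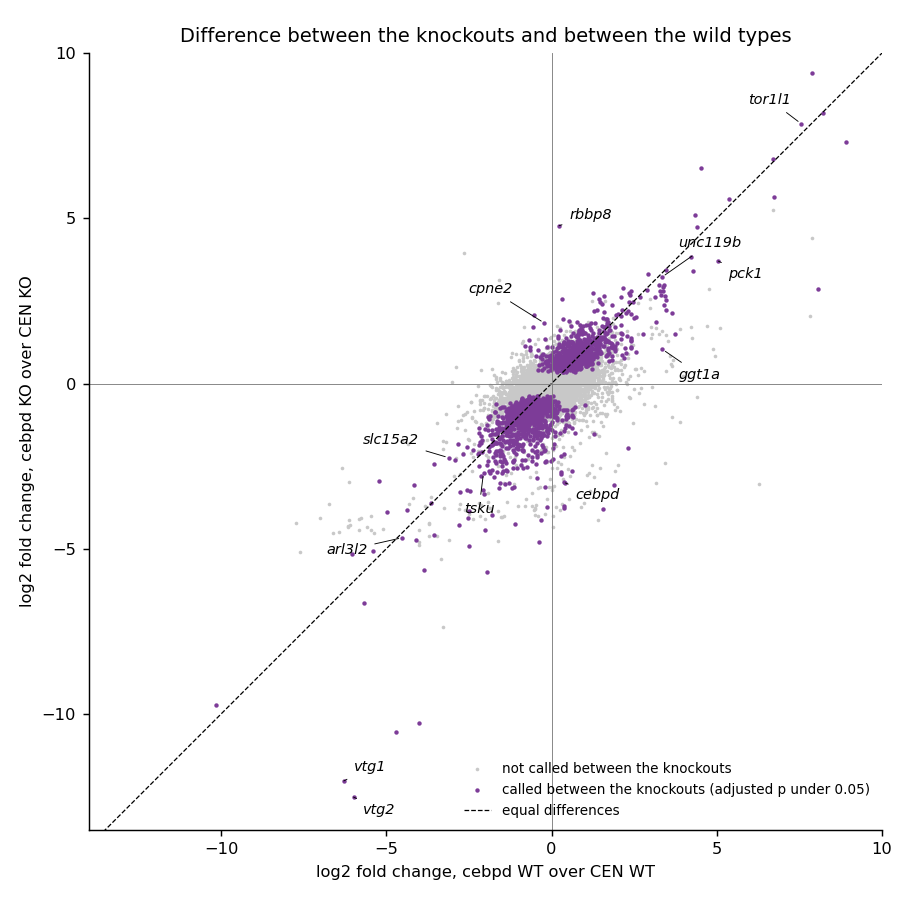
Log2 fold change of each of 11840 genes for cebpd KO over CEN KO (vertical) against cebpd WT over CEN WT (horizontal); purple points were called between the knockouts and the dashed line marks equal differences. Most called genes lie along the line, while cebpd, rbbp8 and ggt1a lie off it.

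The gap between the knockouts differed from the gap between the wild types at 5 genes (0.0422%), and 3 of these, cebpd, rbbp8 and ggt1a, were also called between the knockouts. At an unadjusted p under 0.05 there were 1530 such genes. Set against the wild types of its own set, cebpd KO differed at 10 genes (0.0845%) and CEN KO at 1, rbbp8 (0.00845%). The count of 5 rested on single libraries. It was 0 under the replicate block and without cebpd KO 1, CEN KO 3, cebpd WT 2, CEN WT 1 or CEN WT 2, and 2 without cebpd KO 2 or cebpd WT 1. It was 3 without cebpd WT 3, 10 without CEN WT 3, 12 without CEN KO 2, 48 without cebpd KO 3 and 126 without both libraries that stood apart. Ggt1a, a gamma-glutamyltransferase that degrades extracellular glutathione at the proximal tubule brush border, had 392, 315 and 269 CPM in cebpd KO, against 130, 148 and 198 CPM in CEN KO. All cebpd KO libraries were higher (1.04 ± 0.23, adjusted p = 0.0119, 2.05-fold). Between the wild types the distance was larger, with 660, 721 and 594 CPM in cebpd WT and 73.3, 75.6 and 44.4 CPM in CEN WT (3.35 ± 0.24, 10.2-fold). The knockouts were thus closer to each other than their wild types by -2.32 ± 0.32 (adjusted p = 0.0244). Akap2, an anchor of protein kinase A, and desi1a, a deSUMOylating isopeptidase, were higher in cebpd WT than in CEN WT by 1.64 and 1.39. Between the knockouts akap2 had 19.6, 15.9 and 21.2 CPM in cebpd KO, against 27.3, 23.9 and 31.2 CPM in CEN KO (-0.54, adjusted p = 0.0562), and desi1a had 30.5, 31.1 and 34.9 CPM, against 35.8, 44.9 and 46.5 CPM (-0.40, adjusted p = 0.102). Neither gene was called between the knockouts.

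Several called genes differed between the knockouts and had the opposite sign between the wild types, though none of the following passed the test of the difference after adjustment. Cpne2, a calcium-dependent phospholipid-binding copine, had 576, 818 and 884 CPM in cebpd KO, against 221, 292 and 127 CPM in CEN KO. The knockouts were far apart (1.83 ± 0.34, adjusted p = 0.00567, 3.56-fold), and the wild types overlapped at 210 to 406 CPM in cebpd WT and 290 to 491 CPM in CEN WT (-0.22). The difference of the 2 gaps was 2.05 (adjusted p = 0.109). Hrasa, a Ras GTPase, was higher at 44.3, 44.2 and 44.3 CPM in cebpd KO, against 24.5, 26.9 and 30.6 CPM in CEN KO (0.70, adjusted p = 0.00582, wild types -0.15). In the other direction ca5a, a mitochondrial carbonic anhydrase, was lower at 49.3, 45.7 and 21.2 CPM in cebpd KO, against 105, 123 and 121 CPM in CEN KO (-1.59 ± 0.28, adjusted p = 0.00506, wild types 0.10). Lower as well were the cadherin gene cdh12a (-2.28, adjusted p = 0.0064), the connexin gene cx43.4 (-2.14, adjusted p = 0.00667) and spsb4a, which encodes a substrate adaptor of a ubiquitin ligase (-1.06, adjusted p = 0.00714).

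The genes with the lowest p-values differed in the same direction between the wild types. Tsku, a secreted leucine-rich repeat protein, had 13.5, 13.8 and 11.4 CPM in cebpd KO, against 67.2, 85.6 and 99.5 CPM in CEN KO. It was 6.51-fold lower in cebpd KO (-2.70 ± 0.19, adjusted p = 4.69e-05) and lower by -2.06 between the wild types. Unc119b, a chaperone of lipid-modified cargo, had 76.2, 64.2 and 97.9 CPM in cebpd KO, against 8.32, 8.10 and 9.10 CPM in CEN KO. It was 9.33-fold higher (3.22 ± 0.24, adjusted p = 5.35e-05) and stood at 3.34 between the wild types. Also called by a wide margin were pou3f2a, a POU transcription factor, higher by 2.99, the alcohol dehydrogenase gene adh8b by 2.03 and the prefoldin subunit gene pfdn2 by 1.61, all at an adjusted p of 0.000222. Itgb1b.2, a duplicate integrin beta 1 gene, was higher by 2.61 at the same p, but reads of near-identical copies may be split between them and its level is uncertain. The urea cycle gene asl was lower by -1.47 (adjusted p = 0.000362). Lta4h, which makes the neutrophil attractant leukotriene B4, had 275, 364 and 347 CPM in cebpd KO, against 124, 118 and 108 CPM in CEN KO, without overlap. It was higher by 1.49 ± 0.15 between the knockouts (adjusted p = 0.000362) and by 0.93 between the wild types.

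Some genes were almost on or off. At 15 genes 1 knockout had a mean of at least 1 CPM and every library of the other had at most 3 counts. Of these, 6 were seen in cebpd KO and 9 in CEN KO, and 12 of the 15 were called. By the same strict rule 7 of the 15 had this pattern between the wild types. The rest missed the rule there, but their wild-type means differed in the same direction. Tor1l1, a torsin-family gene, had 26, 32 and 26 counts in cebpd KO, against 0, 0 and 0 counts in CEN KO, and 19, 29 and 19 counts in cebpd WT, against 0, 0 and 0 counts in CEN WT. Against a floor of 3 counts per library it was at least 9.26-fold higher in cebpd KO. The connexin gene cx27.5 had 86, 35 and 117 counts in cebpd KO, against 1, 2 and 2 counts in CEN KO. The pooled ratio was 49.5 (95% counting interval 20.9 to 154). The wild types were parted too, with 255, 164 and 197 counts in cebpd WT, against 5, 6 and 5 counts in CEN WT. In the other direction gbgt1l3, a glycosyltransferase-family gene, had 3, 1 and 3 counts in cebpd KO, against 69, 65 and 50 counts in CEN KO (ratio 25.3, 12.0 to 63.8), and the astacin-like protease gene c6ast3 had 1, 3 and 0 counts, against 31, 52 and 64 counts (ratio 35.4, 13.5 to 132). In the wild types gbgt1l3 had 3, 4 and 5 counts in cebpd WT, against 13, 92 and 55 counts in CEN WT. C6ast3 had 2, 1 and 0 counts in cebpd WT, against 79, 57 and 19 counts in CEN WT. Gbgt1l3 and c6ast3 belong to families of similar copies, so their counts are uncertain.

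Several of the remaining differences were large. Pck1, the rate-limiting enzyme of gluconeogenesis and a proximal tubule gene, had 392, 725 and 1698 CPM in cebpd KO, against 67.3, 31.5 and 117 CPM in CEN KO. The groups did not overlap (3.70 ± 0.57, adjusted p = 0.00273), and in the wild types it was 33.1-fold higher, at 3235, 3087 and 2323 CPM in cebpd WT and 109, 53.6 and 98.9 CPM in CEN WT. Agt, the angiotensin precursor, was higher by 3.41 (adjusted p = 0.00258), elovl2, an elongase of polyunsaturated fatty acids, by 3.30 (adjusted p = 0.00205), and the galectin gene lgals2b by 4.75 (adjusted p = 0.00128). Each of these was also higher in cebpd WT than in CEN WT, agt by 4.28, elovl2 by 2.91 and lgals2b by 4.41. Among the genes lower in cebpd KO, arl3l2, an Arf-like GTPase gene, had 0.309, 0.484 and 0.265 CPM, against 6.16, 13.8 and 7.76 CPM in CEN KO (-4.66, adjusted p = 0.00237). Apobb.1, the apolipoprotein B scaffold of lipoprotein particles, had 4.95, 2.47 and 1.86 CPM in cebpd KO, against 14.4, 60.4 and 13.8 CPM in CEN KO (-3.25, adjusted p = 0.00707). Neither gene's groups overlapped, and both were lower in cebpd WT than in CEN WT, by -4.52 and -2.46.

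Gene lists of kidney and blood cell types and of pathways are described next by their counts and medians. Over all genes tested, 8.52% were higher and 7.35% lower between the knockouts, with a median of -0.01. Wild-type counts of a list have another background, as 1674 of the 11840 genes were higher and 1287 lower between the wild types (25.0% in all). In bulk tissue, fewer cells of a type and less RNA per cell cannot be told apart.

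**Figure D4:**
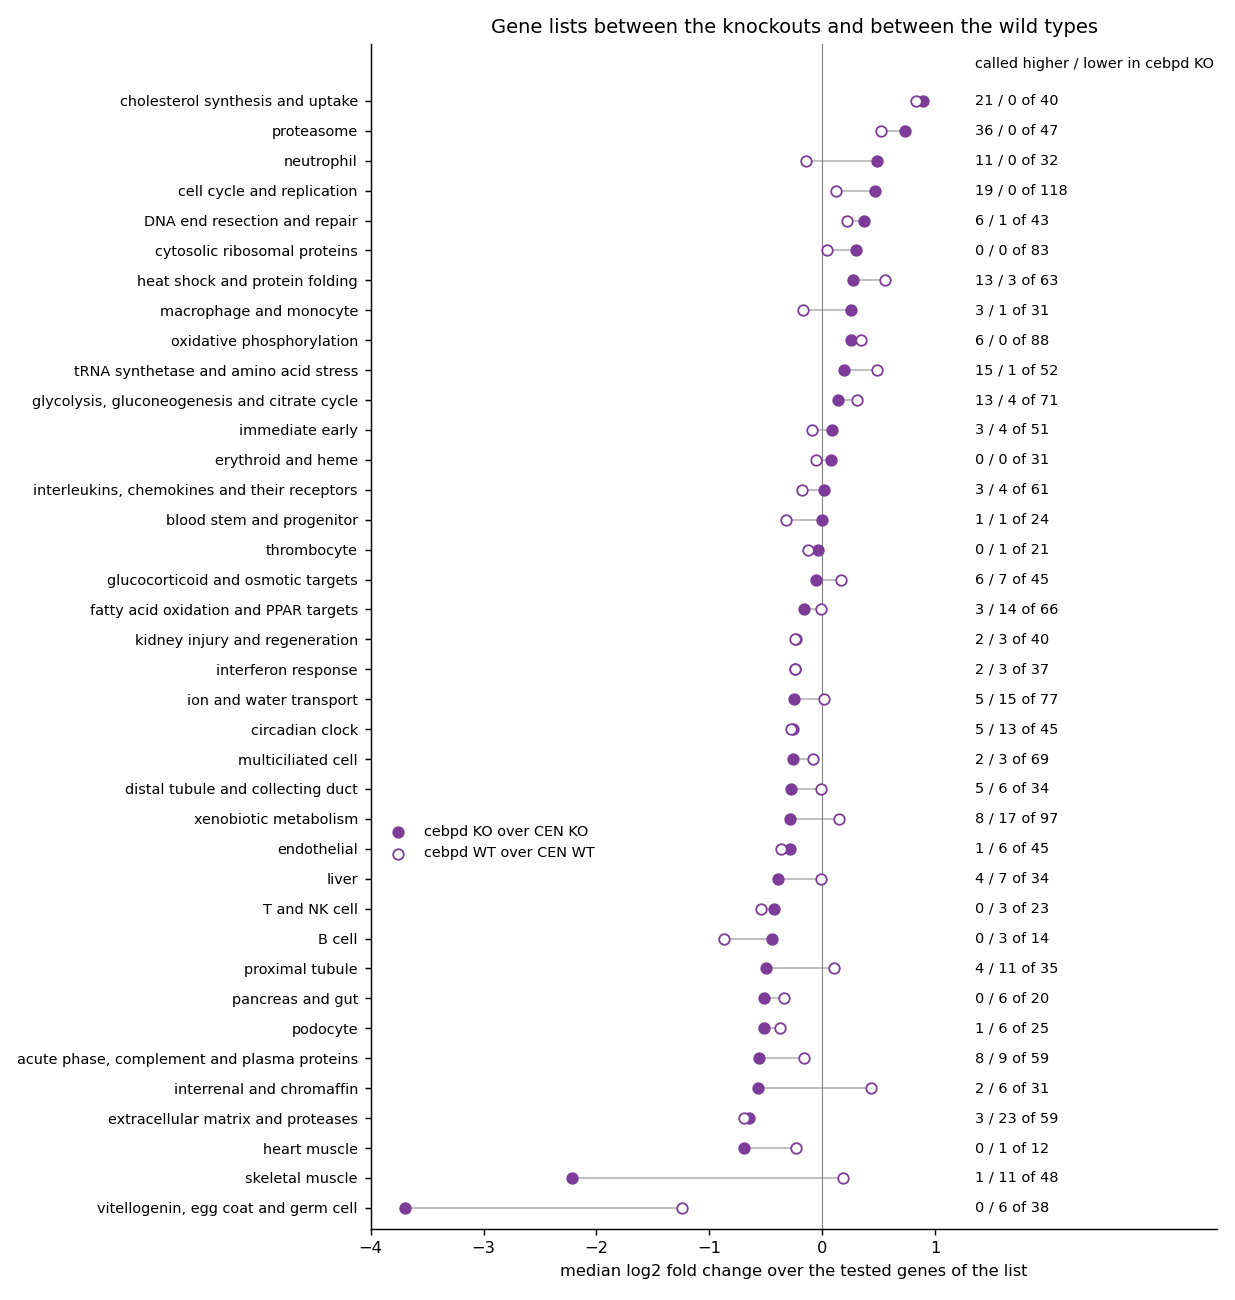
Median log2 fold change of each list of at least 10 tested genes for cebpd KO over CEN KO (filled) and cebpd WT over CEN WT (open), with the genes called higher and lower in cebpd KO at the right. Neutrophil genes and cell cycle genes have a higher median between the knockouts than between the wild types, proteasome and cholesterol genes are shifted up in both, and skeletal muscle and egg genes have the lowest medians, which move most without CEN KO 3 and CEN KO 1.

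Neutrophil genes were higher in cebpd KO where they were called. Of 32 tested, 11 were higher, 0 lower and 21 not called, with a median of 0.49, against -0.14 between the wild types, where 4 were higher and 3 lower. Of the 11 genes, 2 were also called between the wild types, and 7 had an unadjusted p under 0.05 for the difference of the 2 gaps, as had 320 of the 1879 called genes, but none passed it after adjustment. Mmp13a, a collagenase that marks neutrophils, had 407, 351 and 337 CPM in cebpd KO, against 120, 127 and 112 CPM in CEN KO. It was 3.05-fold higher without overlap (1.61 ± 0.18, adjusted p = 0.000636) and higher by 0.94 between the wild types. Lect2l, a secreted chemotactic protein of neutrophils, had 565, 552 and 717 CPM in cebpd KO, against 313, 217 and 185 CPM in CEN KO (1.36 ± 0.26, adjusted p = 0.00645). The wild types overlapped for lect2l (-0.19), and the difference of the gaps missed the threshold (1.55, adjusted p = 0.116). The lectin receptor gene illr4 was higher by 1.78 (adjusted p = 0.00575) and rac2, the GTPase of neutrophil migration, by 0.88 (adjusted p = 0.00913). The classic granule genes did not pass the test: mpx, the myeloperoxidase, had 526, 738 and 387 CPM in cebpd KO, against 461, 374 and 309 CPM in CEN KO (0.53, adjusted p = 0.137), and lyz, the lysozyme, differed by 0.60 (adjusted p = 0.148). The summed CPM of the 7 defining neutrophil markers was 5074 to 6139 in cebpd KO and 2881 to 4281 in CEN KO, against 2349 to 3597 in cebpd WT and 3390 to 5434 in CEN WT, with no marker at 0. The part of neutrophil number in the differences of single genes was not tested. The count of 11 was 7 without both libraries that stood apart, and it was 6 without cebpd KO 2, 7 without cebpd KO 3, 4 without CEN KO 2 and 5 without CEN KO 3.

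Genes of the other blood lineages were called in smaller numbers. Of 31 macrophage genes 3 were higher, among them grn1, a granulin (2.55, adjusted p = 0.0137), and mafbb, a monocyte transcription factor (0.80, adjusted p = 0.0292), and 1 was lower, the granulin gene grna (-0.90, adjusted p = 0.044). The macrophage marker sum was 354 to 407 CPM in cebpd KO and 251 to 348 CPM in CEN KO, and the calls of mafbb and grna were lost in 7 and 11 of the alternatives. Without CEN KO 2 none of the 31 macrophage genes was called, grn1 included. Lymphoid genes were lower where they were called, with a list median of -0.45 for B cells and -0.43 for T and NK cells. Between the wild types these medians were -0.87 and -0.55. There 8 of 14 B cell genes were called lower and 1 higher, and 8 of 23 T and NK cell genes lower and 0 higher. Of 14 B cell genes 3 were lower: the recombinase genes rag1, with 14.8, 10.1 and 7.10 CPM in cebpd KO, against 22.9, 29.5 and 30.0 CPM in CEN KO (-1.36, adjusted p = 0.00618), and rag2 (-0.97, adjusted p = 0.00984), and the tetraspanin gene cd81a (-0.65, adjusted p = 0.0148). All 3 were lower between the wild types too, and cd81a lost its call without CEN KO 2 or CEN KO 3. Of 23 T and NK cell genes 3 were lower, zap70, the kinase of the T cell receptor, by -1.04 (adjusted p = 0.0137), tcf7 by -1.44 (adjusted p = 0.0331) and tox by -0.76 (adjusted p = 0.0373), both tcf7 and tox being T cell transcription factors. None of 31 erythroid genes was called by edgeR's test in either direction in the fit of all libraries, and 1 of 21 thrombocyte genes was, the apelin ligand gene apln, which was lower (-0.58, adjusted p = 0.0384). Apln lost its call in 9 of 21 alternatives, among them without cebpd KO 1, cebpd KO 3, CEN KO 2 or CEN KO 3. In sum the 3 measured thrombocyte markers were higher instead. They had 117 to 189 CPM in cebpd KO and 63.3 to 114 CPM in CEN KO, without overlap. The wild types overlapped, at 101 to 142 CPM in cebpd WT and 107 to 133 CPM in CEN WT. The T and NK cell count of 3 was 0 without CEN KO 3. Tox lost its call in 8 alternatives, the replicate block and the omission of any cebpd KO library among them, and tcf7 in 7, among them without cebpd KO 1, cebpd KO 3 or any CEN KO library. Of 24 blood stem and progenitor genes 1 was higher and 1 lower.

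Genes of the cell cycle and of DNA replication were higher where they were called. Of 118 tested, 19 were higher and 0 lower, with a median of 0.46, against 0.12 between the wild types, where 2 were higher and 1 lower. Pcna, the sliding clamp of replication, had 392, 348 and 484 CPM in cebpd KO, against 228, 189 and 176 CPM in CEN KO, without overlap (1.05 ± 0.25, adjusted p = 0.0159). The helicase subunit genes mcm4, mcm6 and mcm3 were higher by 0.99, 0.94 and 0.89, with adjusted p-values of 0.0102, 0.0152 and 0.0162. Pcna and mcm3 lost their calls without CEN KO 2 or CEN KO 3, and mcm6 without CEN KO 3 and without both libraries that stood apart. Averaged as log2 CPM over all its genes, the list had a level of 5.01, 4.79 and 4.78 in cebpd KO and 4.94, 4.13 and 4.18 in CEN KO, so CEN KO 1 lay within the range of cebpd KO. The wild types also spread widely, at 4.37 to 5.20 in cebpd WT and 4.55 to 5.01 in CEN WT. The count of 19 was 32 without CEN KO 1 and 29 without both libraries that stood apart, but 2 without CEN KO 2, 1 without CEN KO 3, and 5, 10 and 9 without cebpd KO 1, 2 and 3. Of 43 DNA end resection and repair genes 6 were higher and 1 lower. Polh, the lesion-bypass polymerase eta, was higher by 1.26 (adjusted p = 0.00143) and xrcc4, a factor of end joining, by 1.28 (adjusted p = 0.0039), while ddb2, a damage sensor of nucleotide excision repair, was lower by -1.09 (adjusted p = 0.00128). Without CEN KO 3 the 6 were 3.

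**Figure D5:**
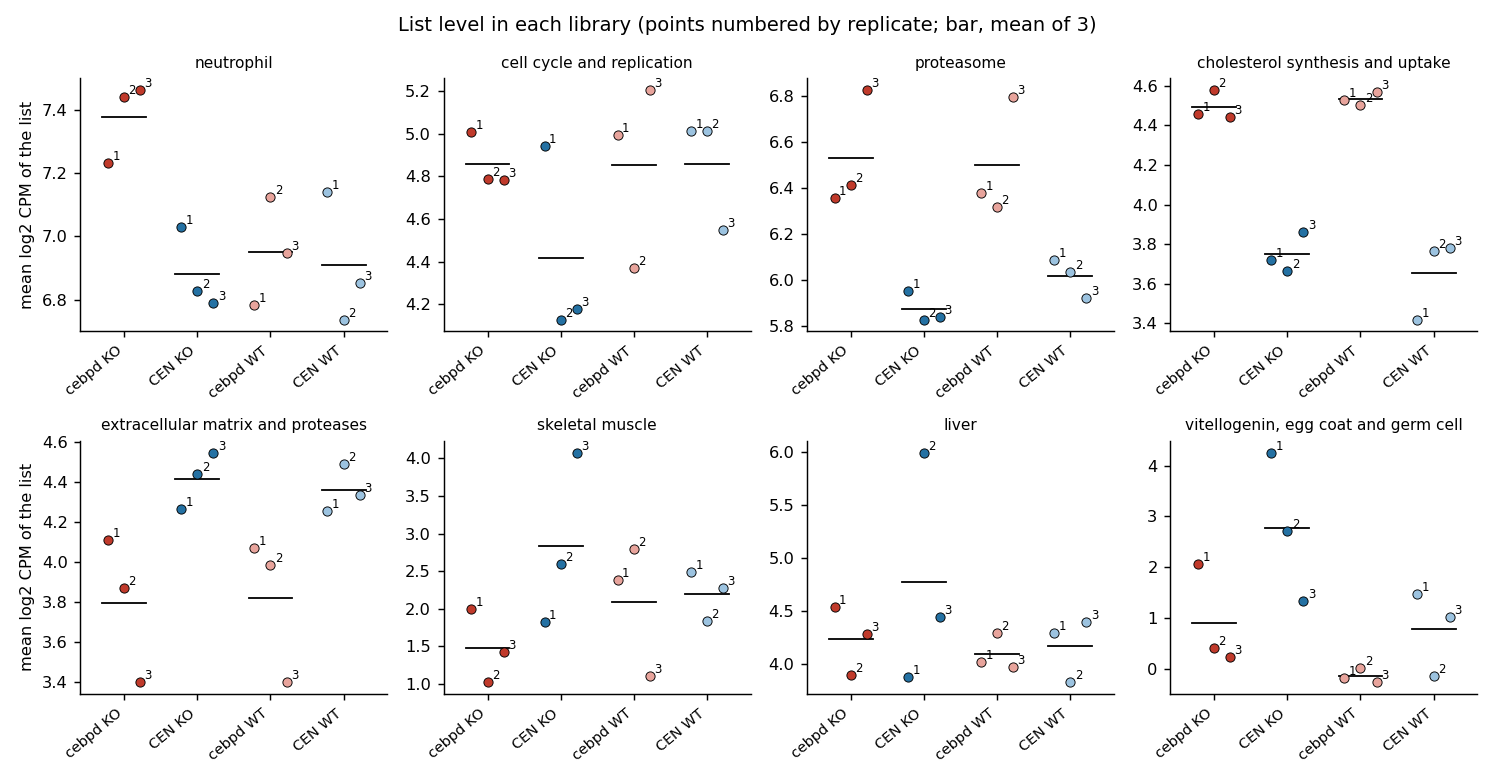
Mean log2 CPM of 8 lists in each library (points numbered by replicate; bar, mean of 3). Proteasome and cholesterol genes part the cebpd set from the CEN set in knockouts and wild types, and neutrophil genes are highest in cebpd KO. The skeletal muscle, liver and egg lists are highest in CEN KO 3, CEN KO 2 and CEN KO 1, and the egg list is raised in cebpd KO 1 too.

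Most proteasome genes were called in the fit of all libraries. The proteasome is the protease complex that degrades ubiquitin-tagged proteins, and 36 of its 47 tested genes were higher in cebpd KO and 0 lower, with a median of 0.74, against 0.52 between the wild types, where 20 were higher. Psmd1, a scaffold at the base of the regulatory particle, had 279, 314 and 278 CPM in cebpd KO, against 174, 178 and 169 CPM in CEN KO. It was 1.67-fold higher without overlap (0.74 ± 0.12, adjusted p = 0.00378). The subunit genes psmd11b, psmd3 and psmd7 were higher by 0.84, 0.78 and 0.81, with adjusted p-values of 0.00443, 0.00488 and 0.00544. The level of the list was 6.36, 6.41 and 6.83 in cebpd KO and 5.95, 5.83 and 5.84 in CEN KO, with cebpd KO 3 the highest. The 36 became 20 without cebpd KO 3, 10 without CEN KO 2, 10 without CEN KO 3 and 17 without both libraries that stood apart. Of the 36, 19 were also called between the wild types, all 36 with the same sign.

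Protein folding and tRNA charging genes that were called were mostly higher. Of 63 heat shock and folding genes 13 were higher and 3 lower, and between the wild types 31 were higher. Hspd1 and hspe1, the mitochondrial chaperonin and its cofactor, were higher by 1.33 (adjusted p = 0.00181) and 1.30 (adjusted p = 0.00133), and dnajb11, a co-chaperone of the endoplasmic reticulum, by 1.06 (adjusted p = 0.00179). Hsf2, a heat shock transcription factor, was lower by -0.99 (adjusted p = 0.00219). Of 52 genes of tRNA synthetases and the amino acid stress response 15 were higher and 1 lower, with 22 higher between the wild types. Qars and mars, which charge glutamine and methionine tRNA, were higher by 1.02 (adjusted p = 0.00128) and 1.15 (adjusted p = 0.00142), and mthfd1l, a mitochondrial folate enzyme, was 4.28-fold higher (adjusted p = 0.00133). The folding count of 13 was 8 without CEN KO 1, 7 without CEN KO 2 and 8 without both libraries that stood apart, and the tRNA count of 15 was 8 without CEN KO 3. Of 88 oxidative phosphorylation genes 6 were higher and 0 lower, with 12 higher without cebpd KO 1, 2 without cebpd KO 3 or CEN KO 1, 1 without CEN KO 2 or CEN KO 3 and 1 without both libraries that stood apart. Between the wild types 16 of the 88 oxidative phosphorylation genes were higher and 0 lower. None of 83 cytosolic ribosomal protein genes was called by edgeR's test, and their median of 0.30 was -0.01 without both libraries that stood apart.

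Genes of cholesterol synthesis and uptake were higher in cebpd KO where they were called. Of 40 genes 21 were higher and 0 lower, with a median of 0.89, against 0.83 between the wild types, and 18 of the 21 were also called there. Lss, the cyclase that makes lanosterol, had 14.3, 15.8 and 23.9 CPM in cebpd KO, against 3.05, 2.66 and 2.91 CPM in CEN KO. It was 6.23-fold higher without overlap (2.64 ± 0.28, adjusted p = 0.000421), with 1.60 between the wild types. Hmgcs1, at the entry to the mevalonate pathway, had 84.4, 201 and 175 CPM in cebpd KO, against 33.5, 26.1 and 58.0 CPM in CEN KO (1.97 ± 0.35, adjusted p = 0.00503). Mvda, the mevalonate decarboxylase, and acat2, which makes acetoacetyl-CoA, were higher by 1.96 (adjusted p = 0.00367) and 1.33 (adjusted p = 0.0029). The list stood at 4.46, 4.58 and 4.44 in cebpd KO and 3.72, 3.67 and 3.86 in CEN KO, so that no library of either knockout reached the other's range. The 21 became 12 without CEN KO 2 and 14 without both libraries that stood apart.

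Fatty acid genes that were called were mostly lower. Of 66 genes of fatty acid oxidation and PPAR targets 14 were lower and 3 higher, with a median of -0.16. Between the wild types 11 of the 66 were lower and 10 higher, with a median of -0.01. All 17 genes called between the knockouts had the same sign between the wild types, and 11 of the 17 were called there. Angptl4, a secreted inhibitor of lipoprotein lipase, had 54.7, 37.1 and 47.2 CPM in cebpd KO, against 126, 165 and 159 CPM in CEN KO. It was 3.24-fold lower without overlap (-1.69 ± 0.23, adjusted p = 0.00151), with -0.56 between the wild types. The fatty acid transporter gene slc27a1b was lower by -3.16 (adjusted p = 0.00143) and acads, the short-chain acyl-CoA dehydrogenase, by -0.93 (adjusted p = 0.00151). Cd36, a scavenger receptor that takes up fatty acids, was higher instead, with 21.1, 23.2 and 24.4 CPM in cebpd KO, against 3.72, 4.11 and 2.79 CPM in CEN KO (2.69 ± 0.33, adjusted p = 0.000902) and 3.30 between the wild types. The 14 became 9 without CEN KO 2 and 7 without CEN KO 3, and 17 without both libraries that stood apart. Of 71 glycolysis, gluconeogenesis and citrate cycle genes 13 were higher and 4 lower. Ldha, the lactate dehydrogenase, had 226, 241 and 272 CPM in cebpd KO, against 124, 135 and 125 CPM in CEN KO (0.94 ± 0.11, adjusted p = 0.00087), and the hexokinase genes hk1 and hk2 were higher by 0.92 (adjusted p = 0.00142) and 0.96 (adjusted p = 0.00199). All 3 differed as much between the wild types, by 0.93, 1.05 and 1.12, and the 13 were 6 without any 1 of the CEN KO libraries and 6 without both libraries that stood apart.

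Nephron genes were called in both directions. Of 35 proximal tubule genes 4 were higher and 11 lower, with a median of -0.50, against 0.10 between the wild types. Slc15a2, the peptide transporter of the brush border, had 30.0, 40.5 and 26.9 CPM in cebpd KO, against 121, 195 and 146 CPM in CEN KO. It was 4.74-fold lower (-2.24 ± 0.20, adjusted p = 0.000204), with -3.11 between the wild types. Slc16a9a, a gene of the monocarboxylate transporter family, went the other way at 1136, 1250 and 1282 CPM in cebpd KO, against 371, 369 and 277 CPM in CEN KO (1.85 ± 0.18, adjusted p = 0.000253), with 1.72 between the wild types. The GABA and taurine transporter gene slc6a13 was lower by -1.27 (adjusted p = 0.00253) and slc26a6l, an anion exchanger gene, by -1.30 (adjusted p = 0.00637). The 5 proximal markers that were measured summed to 3343 to 3694 CPM in cebpd KO and 4631 to 6105 CPM in CEN KO, without overlap, against 3639 to 5665 CPM in cebpd WT and 4330 to 5689 CPM in CEN WT. The 11 lower genes became 6 without cebpd KO 3, 5 without CEN KO 2 and 6 without CEN KO 3, and 12 without both libraries that stood apart.

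Of 34 distal tubule and collecting duct genes 5 were higher and 6 lower. Slc12a3, the thiazide-sensitive sodium chloride cotransporter, had 467, 706 and 440 CPM in cebpd KO, against 1011, 1203 and 1287 CPM in CEN KO. It was 2.17-fold lower without overlap (-1.12 ± 0.24, adjusted p = 0.0102), with -0.69 between the wild types. Bsnd, the barttin subunit of chloride channels, was lower by -1.35 (adjusted p = 0.0123), while atp1a1a.1, a sodium pump subunit, and atp6v1ba, a proton pump subunit, were higher by 0.79 (adjusted p = 0.00643) and 0.63 (adjusted p = 0.00444). The distal counts rested on single libraries: the 6 lower genes were 3 without cebpd KO 3, 2 without CEN KO 2 and 3 without CEN KO 3, the 5 higher genes were 2 without cebpd KO 3, CEN KO 1 or CEN KO 2, and without both libraries that stood apart 2 were higher and 4 lower. In a wider list of 77 ion and water transport genes 5 were higher and 15 lower. Between the wild types 11 of these genes were higher and 4 lower. The 15 were 8 without CEN KO 2, 8 without CEN KO 3 and 14 without both libraries that stood apart. Atp1a1b, another sodium pump subunit, had 16.1, 20.1 and 13.3 CPM in cebpd KO, against 38.7, 46.8 and 58.0 CPM in CEN KO (-1.53 ± 0.22, adjusted p = 0.00179), with -0.45 between the wild types, and the calcium channel gene trpv4 was lower by -0.95 (adjusted p = 0.00641), with -0.02 between the wild types.

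Podocyte genes, of the glomerular filter, were lower where they were called but for 1. Of 25 tested, 6 were lower and 1 higher, with a median of -0.52, against -0.37 between the wild types. Podxl, the podocalyxin of the podocyte surface, had 96.0, 105 and 60.4 CPM in cebpd KO, against 169, 194 and 194 CPM in CEN KO. It was 2.13-fold lower without overlap (-1.09 ± 0.21, adjusted p = 0.00647). Nphs1, the nephrin of the slit diaphragm, was lower by -0.73 (adjusted p = 0.00997). The 5 podocyte markers summed to 140 to 198 CPM in cebpd KO and 282 to 322 CPM in CEN KO, and the wild types were parted likewise, at 154 to 220 CPM in cebpd WT and 246 to 294 CPM in CEN WT. The part of podocyte number in these differences was not tested. Without CEN KO 3 the 6 were 2, and without both libraries that stood apart 7. Of 69 multiciliated cell genes 2 were higher and 3 lower.

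Most extracellular matrix genes that were called were lower in cebpd KO. Of 59 genes of the matrix, its receptors and its proteases 23 were lower, 3 higher and 33 not called, mmp13a among the higher ones, with a median of -0.65, against -0.69 between the wild types, and 18 of the 26 were also called there. Elna, an elastin, had 3.71, 3.17 and 1.06 CPM in cebpd KO, against 9.26 to 16.4 CPM in CEN KO. It was 4.58-fold lower without overlap (-2.20 ± 0.40, adjusted p = 0.00558), with -1.48 between the wild types. Itga6b, a laminin receptor subunit, was lower by -1.73 (adjusted p = 0.000849) and col5a2a, a fibrillar collagen chain, was 1.99-fold lower (adjusted p = 0.00618). The list stood at 4.11, 3.87 and 3.40 in cebpd KO and 4.26, 4.44 and 4.55 in CEN KO, with cebpd KO 3 the lowest. The 23 became 14 without cebpd KO 3, 14 without CEN KO 2, 9 without CEN KO 3 and 14 without both libraries that stood apart. Of 45 endothelial genes 6 were lower and 1 higher, the vascular transcription factor gene erg (0.57, adjusted p = 0.0139), and the 6 were 2 without cebpd KO 1, 2 without CEN KO 2 and 1 without CEN KO 3. Erg lost its call without CEN KO 3 and without both libraries that stood apart. Between the wild types 11 of the endothelial genes were lower and 0 higher. The kidney injury and regeneration list had 3 of 40 genes lower and 2 higher. In all 12.5% were called, against 15.9% of all genes tested. Among the 3 lower ones were spp1, or osteopontin (-1.91, adjusted p = 0.00128), and vim, or vimentin (-1.12, adjusted p = 0.00582).

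Interrenal and chromaffin genes were mixed. Of 31 tested, 6 were lower and 2 higher, with a median of -0.57, against 0.44 between the wild types. Hsd11b2, which inactivates cortisol, had 740, 586 and 872 CPM in cebpd KO, against 1297, 1319 and 1821 CPM in CEN KO. It was 2.02-fold lower without overlap (-1.01 ± 0.23, adjusted p = 0.0141), and between the wild types it had the opposite sign (0.49). The difference of the 2 gaps missed the threshold (-1.50, adjusted p = 0.104), and the call between the knockouts was lost without CEN KO 3. Th2, a gene of this list, was lower by -1.49 (adjusted p = 0.00614). The granule protein genes scg3 and chgb were higher by 2.75 (adjusted p = 0.00688) and 1.71 (adjusted p = 0.0106). The steroidogenic gene star was not called, with 362, 372 and 709 CPM in cebpd KO, against 338, 645 and 660 CPM in CEN KO (-0.19, adjusted p = 0.761). The 6 lower genes were 2 without CEN KO 2, 2 without CEN KO 3 and 8 without both libraries that stood apart. Of 45 targets of glucocorticoids and of osmotic stress 6 were higher and 7 lower, among them ddit4, an inhibitor of mTORC1, higher by 1.38 (adjusted p = 0.0016), and the Krüppel-like factor genes klf11b and klf11a, lower by -1.57 (adjusted p = 0.00205) and -1.05 (adjusted p = 0.013).

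Of 45 genes of the circadian clock and its outputs 13 were lower and 5 higher, and 10 of these 18 were called with the same sign between the wild types. Nfil3-5, a leucine zipper repressor of the nfil3 family, had 103, 82.6 and 81.3 CPM in cebpd KO, against 38.5, 33.8 and 25.0 CPM in CEN KO. It was 2.74-fold higher without overlap (1.45 ± 0.19, adjusted p = 0.0014), while the wild types overlapped at 43.8 to 68.5 CPM in cebpd WT and 44.0 to 50.1 CPM in CEN WT, and the difference of the gaps missed the threshold (1.25, adjusted p = 0.104). Its paralog nfil3 was higher by 1.22 (adjusted p = 0.00272), with 0.49 between the wild types. The photolyase and cryptochrome genes cry5 and cry-dash were lower, cry5 with 17.2, 19.1 and 13.3 CPM in cebpd KO, against 41.5, 42.8 and 42.8 CPM in CEN KO (-1.35, adjusted p = 0.00172), and cry-dash by -1.19 (adjusted p = 0.00172). Both differed between the wild types as well, by -1.27 and -1.64. The labels used here give no time of day of collection for any group. The list median of -0.26 was 0.05 without cebpd KO 3, whose list level was 4.14, against 4.91 and 4.93 in the other cebpd KO libraries and 4.87 to 4.96 in CEN KO.

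Genes of immunity and stress were called in small numbers on both sides. Of 51 immediate early genes 3 were higher, among them the stress factor gene atf3 (1.37, adjusted p = 0.00517), and 4 lower, among them egr2b, a zinc finger factor (-1.79, adjusted p = 0.00142), and the 3 were 1 without CEN KO 2 or CEN KO 3. Of 61 interleukin, chemokine and receptor genes 3 were higher and 4 lower, with 0 higher without CEN KO 3 and 2 lower without cebpd KO 1 or CEN KO 2. The chemokine gene ccl19b had 4.02, 3.98 and 4.11 CPM in cebpd KO, against 9.15, 8.92 and 8.98 CPM in CEN KO, without overlap (-1.16, adjusted p = 0.00172), with -1.63 between the wild types. Cxcl32b.1, another chemokine gene, was higher by 2.06 (adjusted p = 0.0139), with -0.53 between the wild types and a difference of the gaps that missed the threshold (2.59, adjusted p = 0.124). Its call was lost without CEN KO 3, with the 6 knockout libraries alone and without both libraries that stood apart. Of 37 interferon response genes 2 were higher and 3 lower, and 0 of either without cebpd KO 3. Among 59 acute phase, complement and plasma protein genes 8 were higher and 9 lower, and cfh, the complement inhibitor factor H, had 50.1, 44.2 and 45.2 CPM in cebpd KO, against 20.5, 17.9 and 19.8 CPM in CEN KO. It was 2.40-fold higher without overlap (1.26 ± 0.16, adjusted p = 0.00128), with 0.37 between the wild types and no call there. Apoeb, an apolipoprotein E, was higher by 2.13 (adjusted p = 0.00615). The 9 lower acute phase genes became 3 without CEN KO 2 and 4 without cebpd KO 2, but 14 without CEN KO 1 and 11 without both libraries that stood apart, and the 8 higher ones 4 without CEN KO 3. Of 97 xenobiotic metabolism genes 17 were lower and 8 higher, against 14 lower and 21 higher between the wild types. The cytochrome P450 genes cyp2ad3, cyp2ad6 and cyp2p6 were 1.99-fold, 2.73-fold and 2.16-fold lower, each called between the wild types as well. The 17 were 10 without CEN KO 2, 8 without CEN KO 3 and 20 without both libraries that stood apart.

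Lists of tissues other than kidney were each highest in a CEN KO library. The egg and germ cell list stood at 4.26, 2.72 and 1.33 in CEN KO. It was raised in cebpd KO 1 too, at 2.07, against 0.409 and 0.226 in cebpd KO 2 and 3. Vtg1, the precursor of egg yolk made by the liver of females, had 0.433, 0.430 and 0.398 CPM in cebpd KO, against 2.05, 5341 and 3.40 CPM in CEN KO, and vtg2 held 26395 counts in CEN KO 2, against 15 and 8 in the other CEN KO libraries. In the wild types vtg2 held 362, 5 and 75 counts in CEN WT and 0, 6 and 0 counts in cebpd WT. The labels give all fish as male. Vtg1 was called (adjusted p = 0.0256), but the call was lost without CEN KO 2 and in 6 other alternatives, and reads of the vitellogenin copies may be split among them. The vitellogenin, egg coat and germ cell list had 6 of 38 genes lower in cebpd KO and 0 higher, with a median of -3.70, which was -0.01 without CEN KO 1 and 0.46 without both libraries that stood apart. The 6 genes were 1 without cebpd KO 2 and 1 without cebpd KO 3. Testis and ovary markers summed to 0.861 to 16.1 CPM in cebpd KO and 4.05 to 326 CPM in CEN KO. Among 48 skeletal muscle genes 11 were lower and 1 higher, with a median of -2.21, and without CEN KO 3 the median was -1.01 and 1 gene was lower. The 11 were 5, 2 and 2 without cebpd KO 1, 2 and 3, and 23 without CEN KO 1. Skeletal muscle markers summed to 8.39 to 22.9 CPM in cebpd KO and 18.5 to 285 CPM in CEN KO. The creatine kinase gene ckmb had 5.93, 2.21 and 3.85 CPM in cebpd KO, against 8.65, 28.0 and 118 CPM in CEN KO (-3.69, adjusted p = 0.0248), a call lost without cebpd KO 2, cebpd KO 3 or CEN KO 3. Of 34 liver genes 7 were lower and 4 higher, and the median of -0.39 was 0.15 without CEN KO 2. The 7 were 4 without cebpd KO 2, cebpd KO 3 or CEN KO 2, and 13 without CEN KO 1. Fabp10a, the liver fatty acid binding protein, was lower in each cebpd KO library. It had 48.8, 65.7 and 93.7 CPM in cebpd KO, against 170, 335 and 159 CPM in CEN KO (-1.67, adjusted p = 0.00933), and the wild types differed alike (-1.79). The 5 liver markers, fabp10a among them, did not follow it in sum. They overlapped at 358 to 746 CPM in cebpd KO and 286 to 826 CPM in CEN KO, with medians of 558 and 309 CPM. Of 20 pancreas and gut genes 6 were lower, and 0 without CEN KO 3, and of 12 heart muscle genes 1 was lower. The part of these tissues in the differences of other genes was not tested.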

How the data were processed

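Total RNA of whole kidneys was sequenced in 12 libraries. The authors deposited 1 table of raw counts per library, with 14781 genes each. Per the submitters' processing notes the reads were trimmed with Trim Galore 0.6.4, mapped with TopHat2 2.1.1 to danRer10 and counted with HTSeq. The annotation and the use of strand are details not given in the sources used here, so antisense partners and near-identical copies cannot be told apart. The summary lines of each count table (no feature, 32.1 to 38.5% of all counts; ambiguous, 1.32 to 3.99%) were left out.

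Counts were fitted with edgeR 4.0.16 in R 4.3.3 (limma 3.58.1, quasi-likelihood test, TMM, filterByExpr at a minimum count of 10, Benjamini-Hochberg at 0.05), with 1 term per group over all 12 libraries. The wild types entered the knockout contrast only through the estimate of the spread. Wild-type libraries lay closer together, with a mean correlation to the group's other libraries of 0.977 to 0.983, against 0.950 to 0.967 in the knockouts. The pooled spread may therefore be too small for the knockouts. With the 6 knockout libraries alone, which also leave fewer libraries for the spread, 814 genes were called. DESeq2 1.42.0 and limma-voom were alternatives, with other scalings, filters, thresholds, the 6 knockout libraries alone, the replicate number as a block, each library left out, and both libraries that stood apart left out. The main fit took no account of replicate numbers, which entered only as the alternative with a block. Deviations from the group mean correlated at r = 0.347, 0.150 and 0.154 between same-numbered knockout libraries. Between unlike-numbered ones they correlated at -0.257 to 0.0457. With 3 libraries a group these values cannot settle whether the replicates were paired. No pair of replicates agreed within counting noise. Scripts were tested on simulated data.

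Named genes were cebpd, rbbp8, up to 15 largest differences in each direction without overlap and with a mean of at least 1 CPM, the 10 of lowest p, up to 8 each that differed from the wild-type gap or had the opposite sign there, up to 4 per list by lowest p, and the C/EBP family. Mpx, lyz and star (defining markers), akap2 and desi1a, and the neighbours mapre2, riok3 and pcmtd1 fall outside this rule and were named after their values were seen. Members and the 39 lists were chosen with earlier results of these data known. Of the gene names 12660 matched RefSeq by symbol, 1832 by synonym and 289 not at all. Some named genes are not reported here.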

Additional observations from a re-analysis of the deposited data

Results flagged for a closer look

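The gap between cebpd KO and CEN KO differed from the gap between cebpd WT and CEN WT at 5 genes by the edgeR test of the difference itself, and these are given for a closer look. The knockout gap minus the wild-type gap was -3.42 ± 0.46 for cebpd (adjusted p = 0.0244), with gaps of -3.01 and 0.42, so the knockouts were further apart. For ggt1a it was -2.32 ± 0.32 (adjusted p = 0.0244), with gaps of 1.04 and 3.35, so the knockouts were closer. For rbbp8 it was 4.54 ± 0.63 (adjusted p = 0.0244), with gaps of 4.77 and 0.23. For akap2 the difference was -2.18 ± 0.25 (adjusted p = 0.017) and for desi1a -1.79 ± 0.22 (adjusted p = 0.0212), with neither gene called between the knockouts themselves. All 5 lost this call under the replicate block.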

How the results depend on the processing

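Among the 167 genes named by rule, cebpd and rbbp8 included, no direction turned under the alternatives run; mapre2, riok3, pcmtd1, mpx, lyz, star, akap2 and desi1a were not among them. Of the 167, calls were lost for 38 without CEN KO 3, 28 without CEN KO 2, 20 without cebpd KO 3, 28 with the 6 knockout libraries alone, 10 with limma-voom, 7 under the replicate block and 18 without both libraries that stood apart. The 1879 genes differing between the knockouts were 814 with the 6 knockout libraries alone (800 shared), 2982 at an adjusted p under 0.1 and 740 with a log2 change of at least 1. Leaving out 1 library gave 795 to 1890. Under the replicate block the count was 1913 (1695 shared) between the knockouts and 3084 between the wild types, close to the fit without it. The 2961 genes between the wild types were 1145 with a log2 change of at least 1, and 1630 to 4013 with 1 library left out. The 5 genes whose gaps differed were 344 with the DESeq2 Wald test, 8 with limma-voom, 8 at an adjusted p under 0.1, 0 under the replicate block, 0 to 48 with 1 library left out and 126 without both libraries that stood apart. The cause of these changes was not tested. With 3 libraries a group and 3 counts at 0.157 to 0.199 CPM, differences of genes near that level were not detectable at this depth.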
